A study of Mus musculus with 384 samples.

Results

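The genes described here are the mouse genes whose symbol is Zfp followed by a number, a naming class for zinc finger proteins, measured in bone marrow-derived macrophages stimulated with 12 innate immune ligands. Of 331 such symbols in the count table, with Zfp36 set aside because it encodes an mRNA decay factor with another kind of finger, 174 had a summed count of 500 or more over all 384 wells and were taken as members. The other 157 fell below that count, and 18 of those had no count in any well. Members were selected on the summed count alone, so summed counts are given as a description. Just inside the limit were Zfp346 with 510 counts, Zfp770 with 534 and Zfp688 with 538, and just outside were Zfp870 with 497, Zfp867 with 473 and Zfp667 with 458. The table lists 23481 genes, of which 16100 had a count and 9580 reached the same minimum.

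Most Zfp genes encode proteins with tandem C2H2 zinc fingers, small folds held by a zinc ion that each contact a few bases of DNA. A large share carries a KRAB domain, which recruits the corepressor Trim28 and, through it, the histone methyltransferase Setdb1, and many KRAB proteins silence transposable elements. As a class, messenger RNAs for zinc finger transcription factors are known for short half-lives, so their level can follow a change of transcription quickly.

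Bone marrow of male C57BL/6 mice, 13 weeks old, gave the macrophages, either wild type (WT) or Myd88 knockout (KO). Myd88 is the adaptor through which most Toll-like receptors signal; how the allele was made is not given in the sources used here. All cells, the controls included, had been transduced with a pool of viruses carrying pathway reporters before they were replated. Each genotype filled 2 plates of 96 wells, with 12 ligands and 8 times per plate (0, 0.5, 1, 1.5, 2, 2.5, 3 and 4 h), and every well gave 1 library made from the 3′ ends of mRNA. Whether the 2 plates of a genotype hold cells of separate mice or cultures is not stated in the labels, so p-values measure the spread between plates, which may be technical. WT and KO were never on the same plate, so genotype and plate cannot be told apart.

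Ligands were combined into 4 sets, following what is known of their receptors and earlier results of these data. Set A was FLA with Pam3Cys, R848 and CpG, which are known to signal through Myd88. Set B was LPS, MDP/LPS and Zymosan, which are known to signal with and without it, and set C was the double-stranded RNA mimic Poly(I:C) and SeV. Set D was MDP, TDB and HT-DNA, which gave few changes in these data. Wells were summed per plate into an early window (0.5 and 1 h), a middle window (1.5 and 2 h) and a late window (2.5, 3 and 4 h), and were compared with the 12 time 0 wells of the same plate. Levels are CPM, counts scaled to the same total of 1000000 for each plate's sum, given for plate 1 and then plate 2. Log2 changes, their standard errors (SE) and adjusted p-values come from edgeR's quasi-likelihood test over 11256 genes with Benjamini-Hochberg adjustment at a threshold of 0.05.

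Wells held 71720 to 767167 counts (median 342561), and members took 0.373% to 0.432% of the counts of a plate. Nfkbia, an early NF-kB target that checks whether wells responded, stood at 954 and 1080 CPM in WT wells at time 0 and at 11300 and 11000 in the early window of set A. In KO wells it was 627 and 626 at time 0 and 737 and 785 in set A early, which did not pass the test (adjusted p = 1). Myd88 itself was at 30.4 and 35 CPM in WT and 14.5 and 17 in KO wells at time 0 (log2 difference -1.09, SE 0.34, adjusted p = 0.0845). A 3′ tag may lie outside the deleted stretch, so this value does not check the labels. The table held 9 of 10 macrophage markers, which summed to 2990 to 4500 CPM in every plate sum, while markers of T, B and NK cells, fibroblasts, erythroid and mast cells stayed at or under 4.41 CPM. The 4 dendritic cell markers, of which Flt3 and Cd209a were at 0, summed to 0.398 to 10.4 CPM over all sums, and the 2 proliferation markers to 220 to 261 at time 0 and 170 to 470 later. The 6 neutrophil markers found summed to 118 to 191 CPM at time 0 and 91.9 to 176 later. These are bulk samples, in which fewer cells of a type and less RNA per cell cannot be told apart.

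Among the 174 members the median summed count was 1331 (quartiles 871 and 2741). Counts were concentrated: Zfp263 held 59784, or 11.4% of all member counts, followed by Zfp91 with 35507, Zfp207 with 16421, Zfp292 with 13801, Zfp704 with 11306 and Zfp281 with 11049, and these 6 made up 28.2%. In the coding sequences of GENCODE's annotation of GRCm38, 79 members matched a KRAB pattern and 95 did not. The median number of C2H2 fingers was 9.5, with 12 in KRAB members and 7 in the others, a maximum of 37, and 7 members with none found. Members lay on 20 chromosomes, 38 of them on chromosome 7 and 20 on chromosome 17, where clusters of related copies sit. Such copies can share reads, and how the authors' counting treated these is not given in the sources used here. A gene on the other strand overlapped 63 members and another gene on the same strand overlapped 33, and their reads may not be told apart.

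The windows before the transcription starts of 4 members that moved in different patterns are printed to show how unlike they are. Each runs 5′ to 3′ on the gene's own strand and ends at the base before the gene's start in GENCODE's annotation. The sequences come from RefSeq's promoter windows on GRCm38.p6, without the bases that GENCODE places inside the gene. CG dinucleotides are in capitals, because dense CG marks the promoters of broadly expressed genes. The windows are chr16:3743849-3744092 on the plus strand for Zfp263, chr1:136624651-136624900 on the plus strand for Zfp281, chr17:32809932-32810181 on the minus strand for Zfp811 and chr2:150136709-150136928 on the minus strand for Zfp120.
Zfp263: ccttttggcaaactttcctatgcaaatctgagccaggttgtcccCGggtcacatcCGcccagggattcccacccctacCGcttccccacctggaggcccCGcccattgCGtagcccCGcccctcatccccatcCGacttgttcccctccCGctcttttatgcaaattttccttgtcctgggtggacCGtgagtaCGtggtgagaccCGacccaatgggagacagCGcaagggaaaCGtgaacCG
Zfp281: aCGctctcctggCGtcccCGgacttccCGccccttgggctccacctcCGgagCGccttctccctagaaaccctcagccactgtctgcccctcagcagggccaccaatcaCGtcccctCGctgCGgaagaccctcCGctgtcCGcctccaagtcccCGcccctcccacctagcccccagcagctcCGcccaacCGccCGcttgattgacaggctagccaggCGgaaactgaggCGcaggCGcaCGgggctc
Zfp811: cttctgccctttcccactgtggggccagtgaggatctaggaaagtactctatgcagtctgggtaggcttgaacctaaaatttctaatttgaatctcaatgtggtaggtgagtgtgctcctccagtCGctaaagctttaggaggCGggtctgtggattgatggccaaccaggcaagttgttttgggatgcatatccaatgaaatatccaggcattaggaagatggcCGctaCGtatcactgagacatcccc
Zfp120: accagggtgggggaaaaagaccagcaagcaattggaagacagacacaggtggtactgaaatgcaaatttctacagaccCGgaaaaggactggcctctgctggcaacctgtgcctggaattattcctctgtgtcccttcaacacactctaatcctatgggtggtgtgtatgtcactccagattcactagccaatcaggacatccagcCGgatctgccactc
The Zfp281 window holds 19 CG dinucleotides and that of Zfp263 holds 14, against 4 for Zfp811 and 2 for Zfp120, which has 5 in its whole window of 250 bases. Over whole windows of 250 bases the median was 6 CG among all 32851 windows in the table and 12 among the 174 windows that belong to 141 members. KRAB members had a median of 8 over 79 windows and the others 17 over 95. Zfp811 and Zfp120 are KRAB members and the other two are not.

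The motifs searched in all windows on both strands were the NF-kB consensus and TGANTCA, the core of AP-1 sites. They were present in 3.9% and 6.75% of all windows, and in 3.45% and 4.02% of member windows. None of the 4 printed windows had a match to either motif as searched. Shorter near forms of the NF-kB consensus, such as gggattccc in the Zfp263 window, were not counted as matches. Zfp131 has an NF-kB match 223 bases before 1 of its 2 listed starts. A match describes letters only, and its absence says nothing about a factor.

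Early on, few members passed the test for single genes, and the members as a group were described by medians without a test. In the early window 1 member, Zfp120 in WT set B, was lower by the test, and over the other 7 early comparisons 0 were lower. The median log2 change of the members in WT cells was -0.13 in set A, -0.03 in set B and -0.08 in set C, and 0.02 in set D, where genes outside the class with the same minimum had medians of -0.01, -0.02, 0.00 and -0.01. The set A value rested on plate 2: with plate 2 alone it was -0.23 and with plate 1 alone -0.04. In KO cells the early medians were -0.06, -0.09, -0.01 and -0.07 for sets A to D.

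The background of calls over all genes was also low early. In WT set A early 1 member was higher (Zfp263), against 1.13% of all genes tested, and 0 were lower, against 0.0533%. In WT set B early 2 were higher (Zfp263 and Zfp131), against 1.31%, and 1 was lower, against 0.133%. No member was called early in WT set C (0.426% of all genes in either direction), WT set D (0.0178%), KO set A (0.0888%), KO set B (1.24%), KO set C (1.4%) or KO set D (0.115%). At an unadjusted p under 0.05 these 6 comparisons had 9, 3, 4, 13, 14 and 14 members. The share of all genes at that p was not counted, here or below, and some genes pass it without any change. A p that misses the threshold does not show that these members stayed at their time 0 level.

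Beside Zfp120 in WT set B early, lower calls of members came in the middle and late windows. In the middle window, WT set A had 3 members higher (against 2.97% of all genes) and 3 lower (against 1.04%), and WT set B had 7 higher (5.06%) and 8 lower (2.15%). WT set C middle had 0 higher (1.87%) and 3 lower (0.773%). In the late window, WT set A had 3 higher (5.17%) and 1 lower (3.11%), WT set B had 5 higher (10.4%) and 8 lower (5.97%), and WT set C had 3 higher (7.86%) and 9 lower (4.39%). The share of members called lower was 4.60% in WT set B middle against 2.43% of the other genes with the same minimum, 4.60% in set B late against 6.88%, and 5.17% in set C late against 5.10%. Late lower calls among members were thus near the share of other genes in WT sets B and C. In WT set A late they were below it, 0.575% against 3.66%. Higher calls in WT set B late covered 2.87% of members and 12.2% of other genes. These shares are not matched for depth. Of 4 ranges of summed count, the largest for members was 500 to 999 (61 members), and for other genes 4000 or more (4287 genes).

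No member passed in WT set D middle (0.0977%) or late (0.293%), nor in KO set A middle (0.124%) or late (0.107%). At an unadjusted p under 0.05 there were 7, 3, 6 and 5 members in these comparisons. In KO cells given set B, 3 members were higher (5.04%) and 12 lower (3.0%) in the middle window, and 4 higher (8.47%) and 13 lower (5.7%) in the late one. In KO set C the middle window had 2 higher (3.54%) and 6 lower (2.39%), and the late window 5 higher (10.1%) and 14 lower (7.54%). KO set D had none in the middle window (0.657%, 6 at an unadjusted p under 0.05) and 1 higher in the late one (1.46%), Zfp263.

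Across the 24 comparisons with time 0, 52 members were called in at least 1, 40 of them lower and 13 higher, with Zfp703 in both directions, and 122 were never called. The number of all genes called in at least 1 of the 24 was not counted. These totals thus do not set members apart from other genes. Called members had more counts, a median of 2199 against 1210. Of all members, 79 matched the KRAB pattern and 95 did not. Among those called, KRAB members were 21 of the 40 lower and 4 of the 13 higher, and no test of these shares was made. Leaving out a single plate moved these counts by more than 1.5 times: without plate 1 or without plate 2 of WT, 1 member was lower in WT set B middle, and the late lower calls ranged from 2 to 12 in set B and 2 to 13 in set C over the plates left out. Of 146 calls of single members followed through the alternatives, 65 were kept without plate 1 of WT and 67 without plate 2. The 146 include calls within 1 genotype, which use no plate of the other, so those kept are not a share of the calls a plate enters. With plate as a replicate block the members called in any window of WT set A went from 3 to 6 higher and from 3 to 5 lower.

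In the late window the share of members below time 0 was larger than that of other genes in every group except KO set A. In WT set A late 110 of 174 members (63.2%) were below zero against 49.7% of other genes, with a median log2 change of -0.115. In WT set B late the median log2 change of members was -0.21, with 111 of 174 (63.8%) below zero against 52.1% of other genes, and in WT set C late it was -0.37, with 121 (69.5%) below zero against 51.5%. Medians in KO cells were -0.21 in set B late and -0.33 in set C late, where 121 members (69.5%) were below zero against 51.7%. WT set D late, with no member called, had a median of -0.07 and 59.2% of members below zero against 49.8%, and KO set A late ran the other way with 0.03 and 44.8% against 49.1%. Each WT plate alone gave a negative value, -0.25 and -0.12 in set B late and -0.38 and -0.26 in set C late. The set C value depended on the reference: against the time 0 wells of Poly(I:C) and SeV only it was -0.19. The genes are not independent replicates, and no test of these medians was made.

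**Figure D1:**
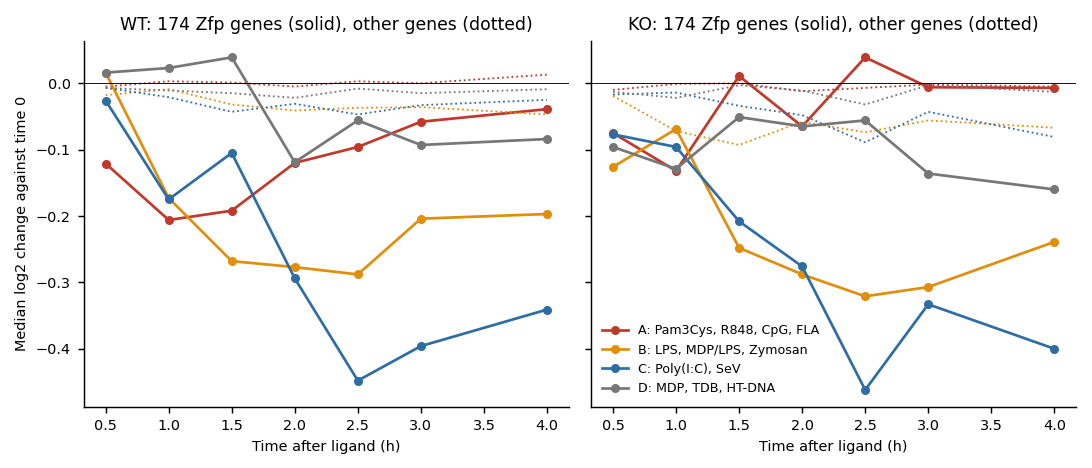
Median log2 change from time 0 of the 174 members (y axis, log2) against hours after ligand (x axis), for each ligand set in WT and KO cells, with genes outside the class that reach the same summed count drawn for comparison. In WT cells set C reaches -0.45 at 2.5 h and set B -0.29 at 2.5 h, while set D stays between -0.12 and 0.04.

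By single times, the WT set B median was 0.02 at 0.5 h, -0.17 at 1 h, -0.27 at 1.5 h, -0.29 at 2.5 h and -0.20 at 4 h. Set C stood at -0.03 at 0.5 h, -0.29 at 2 h, -0.45 at 2.5 h and -0.34 at 4 h. Set A was lowest at 1 h with -0.21 and was back at -0.04 by 4 h. In KO cells set A stayed between -0.13 and 0.04, and set C was lowest at 2.5 h with -0.46. Neighbouring times were close (-0.19 at 1.5 h in WT set A, -0.28 at 2 h in WT set B and -0.40 at 3 h in WT set C), and their order was not tested.

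Low counts moved with this pattern, in members and in other genes alike. In WT set B late, members of 500 to 999 summed counts had a median of -0.31 and other genes of that range -0.22; at 4000 or more the values were -0.14 and 0.08. In WT set C late the pairs were -0.41 and -0.16 at 500 to 999, -0.31 and -0.14 at 1000 to 1999, -0.36 and -0.05 at 2000 to 3999, and -0.26 and 0.05 at 4000 or more. At each of these count ranges the members' median was the lower one in both comparisons, and the part of low counts in it was not tested further. In WT set D late the members of 500 to 999 counts also stood at -0.19, against -0.04 for other genes.

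**Figure D2:**
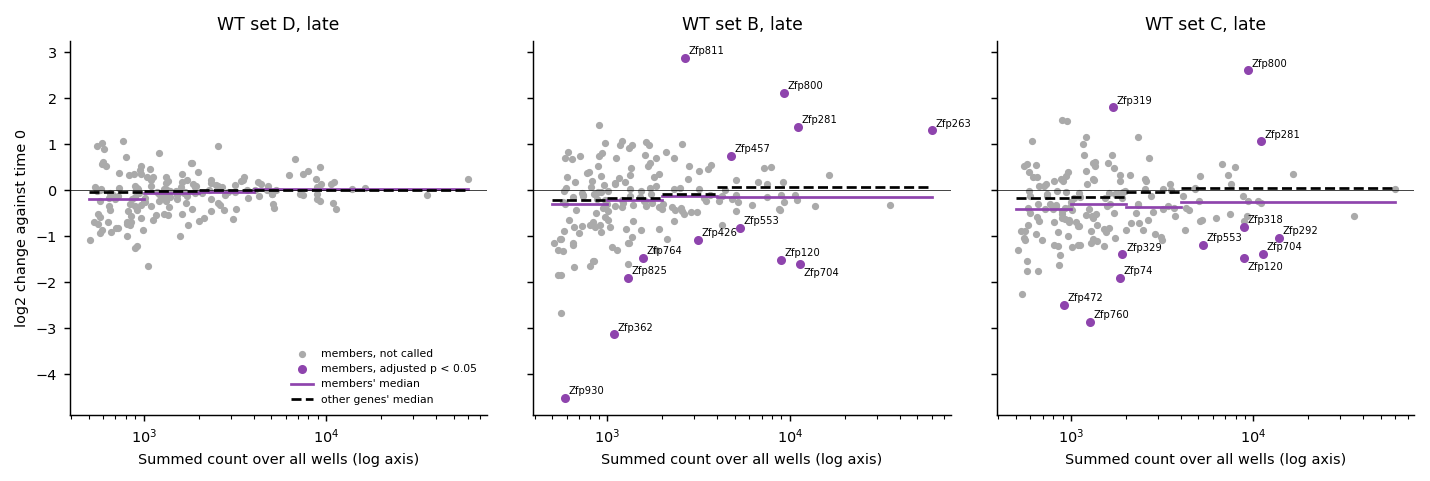
Late log2 change from time 0 (y axis) of each member against its summed count over all wells (x axis, log scale) in WT sets D, B and C, with called members in purple and named; horizontal lines give the median of members (solid) and of other genes (dashed) in 4 ranges of summed count. In sets B and C the solid line lies below the dashed one in every range, and in set D no member is called.

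The scale matters for any statement on the class as a whole. Between CPM and the TMM scale of the fit all genes shift by up to -0.38 on the log2 scale, in WT set B late, and by -0.23 in WT and KO set C late; the changes above are relative to that shift. On plain CPM the members' medians were -0.59 against -0.42 for all genes in WT set B late and -0.61 against -0.27 in WT set C late. The summed CPM of all members at 4 h was 83.1% and 86.3% of time 0 in WT set B but 113% and 115% on the TMM scale, so its direction flips with the scaling. In WT set C it was 66.5% and 78.2% on CPM and 86.7% and 100% on the TMM scale. KO set C gave 70.4% and 67.7%, and 89.2% and 80.6%. Zfp263 weighs on such sums: without it, WT set B stood at 71.8% and 77% on CPM and 97.4% and 102% on the TMM scale.

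Zfp263, a DNA-binding zinc finger protein at chr16:3744093-3750790 (ENSMUSG00000022529.11, plus strand), was called higher in 10 of the 24 comparisons, more than any other member, and was the only member to pass at 0.5 h in the fit of single times. It stood at 408 and 356 CPM at time 0 in WT cells. In set A it reached 758 and 572 early, 893 and 804 in the middle window and 968 and 962 late (log2 change 1.48, adjusted p = 7.71e-13 by edgeR). Both plates were above both time 0 sums in every window. By single times it passed the test at 0.5 h (0.73, adjusted p = 0.0297) and was highest at 3 h (1.68). Set B gave 658 and 531 early, 801 and 675 in the middle window and 794 and 657 late (1.30 late), again without overlap with time 0. In WT set C late it was 345 and 317 (0.03), below both time 0 sums on the CPM scale. WT set D reached 511 and 499 in the middle window, which did not pass (0.41, adjusted p = 0.685).

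In KO cells Zfp263 stood at 243 and 299 CPM at time 0, below both WT plates (log2 difference -0.54, SE 0.15, adjusted p = 0.0279; 2.01% of all genes were called in that comparison, and no other member). That call was lost without WT plate 1, without WT plate 2 and without KO plate 1. Set A left it at 280 and 269 late (0.03), inside the KO time 0 range. Set B still raised it in the middle window, to 531 and 432 (1.01, SE 0.15, adjusted p = 2.59e-07), and less late, 362 and 293 (0.54), a call lost without KO plate 1. KO set D late gave 409 and 443 (0.69), also lost without KO plate 1, and KO set C middle 346 and 428 (0.53).

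Zfp263 also had a local high at 2 h outside set A. At 2 h it stood above its neighbouring times in sets B, C and D of both genotypes, the weakly acting set D included: the WT set D mean was 448 CPM at 1.5 h, 562 at 2 h and 460 at 2.5 h, and the KO set D mean 307, 487 and 386. KO set D at 2 h passed against time 0 (0.87, SE 0.19, adjusted p = 0.00749). Set A did not share it in either genotype. KO set A had 232 and 211 in the middle window, where KO set D had 368 and 420. By edgeR, KO set A was lower than KO set D in the middle window (-0.80, SE 0.15, adjusted p = 0.00178) and late (-0.67, SE 0.15, adjusted p = 0.00481). Of all 11256 genes tested, 14 and 89 were lower in these comparisons. Against set D of the same window the middle value of KO set B was 0.46 and missed the threshold (SE 0.15, adjusted p = 0.0523), and the late one was -0.15. The WT rises in sets A and B passed against set D in all 3 windows, with 0.99 and 0.85 early and 1.24 and 1.06 late. The part of sampling time or well position in the 2 h level was not tested.

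Zfp811, a KRAB gene with 14 fingers at chr17:32795676-32809931 (ENSMUSG00000055202.11, minus strand), had the highest fitted rise of all called members, in WT set A late. It stood at 6.94 and 10.4 CPM at time 0 in WT cells and at 35.5 and 29.1 in the middle and 114 and 138 in the late window of set A (4.01, SE 0.42, adjusted p = 5.91e-12). It climbed through the course, with 79.6 CPM at 2.5 h and 168 at 4 h as the mean of both plates. In set B late it was 51.4 and 46.5 (2.88), in set C late 9.56 and 14.4 (0.71, adjusted p = 0.363). KO cells had 6.39 and 5.08 at time 0 and 6.83 and 9.54 in set A late (0.51, adjusted p = 1). In KO set B late it was 10.4 and 12.3 (1.23, adjusted p = 0.0532). The late WT values of sets A and B stood far above every KO value, and 2 small annotated genes, Gm23294 and Gm25555, lie within it on the same strand.

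Zfp281, a regulator known from embryonic stem cell pluripotency, lies at chr1:136624901-136630053 (ENSMUSG00000041483.14, plus strand). It was called higher in sets A and B in the middle and late windows and in set C late. WT time 0 was 70.8 and 83.3 CPM. The middle window of set A lay above time 0 in both plates (0.75, SE 0.22, adjusted p = 0.0276) and set B middle gave 135 and 135 (1.00, adjusted p = 0.00071), and both calls were lost when either WT plate was left out. Set A late reached 124 and 103 (0.71, adjusted p = 0.0246), set B late 161 and 147 (1.38, adjusted p = 5.29e-07) and set C late 162 and 113 (1.06). The set A late call was also lost when either WT plate was left out, and the set C call without WT plate 1. In KO cells it went from 47.3 and 64.5 to 149 and 139 in set C late (1.60, adjusted p = 1.94e-08) and 88.5 and 87.7 in set B late (0.92), and stood at 62.5 and 54.1 in set A late. All late sums of sets B and C lay above their time 0 values in both genotypes.

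Zfp800, at chr6:28239927-28398005 (ENSMUSG00000039841.14, minus strand), moved with sets B and C. WT time 0 was 44.9 and 46.1 CPM, set B late 138 and 167 (2.12, adjusted p = 1.23e-07) and set C late 206 and 268 (2.61, adjusted p = 1.04e-09). Set A late was 76.4 and 70.6 (0.83), which missed the threshold (adjusted p = 0.0733). KO time 0 was 25.4 and 32, and KO set C late 108 and 175 (2.54, adjusted p = 3.68e-09) and KO set B late 78.2 and 77.7 (1.71). In this gene the groups of sets B and C never overlapped time 0 late, and KO set A late stood at 29.2 and 44.2. Gm5303 overlaps it on the same strand.

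**Figure D3:**
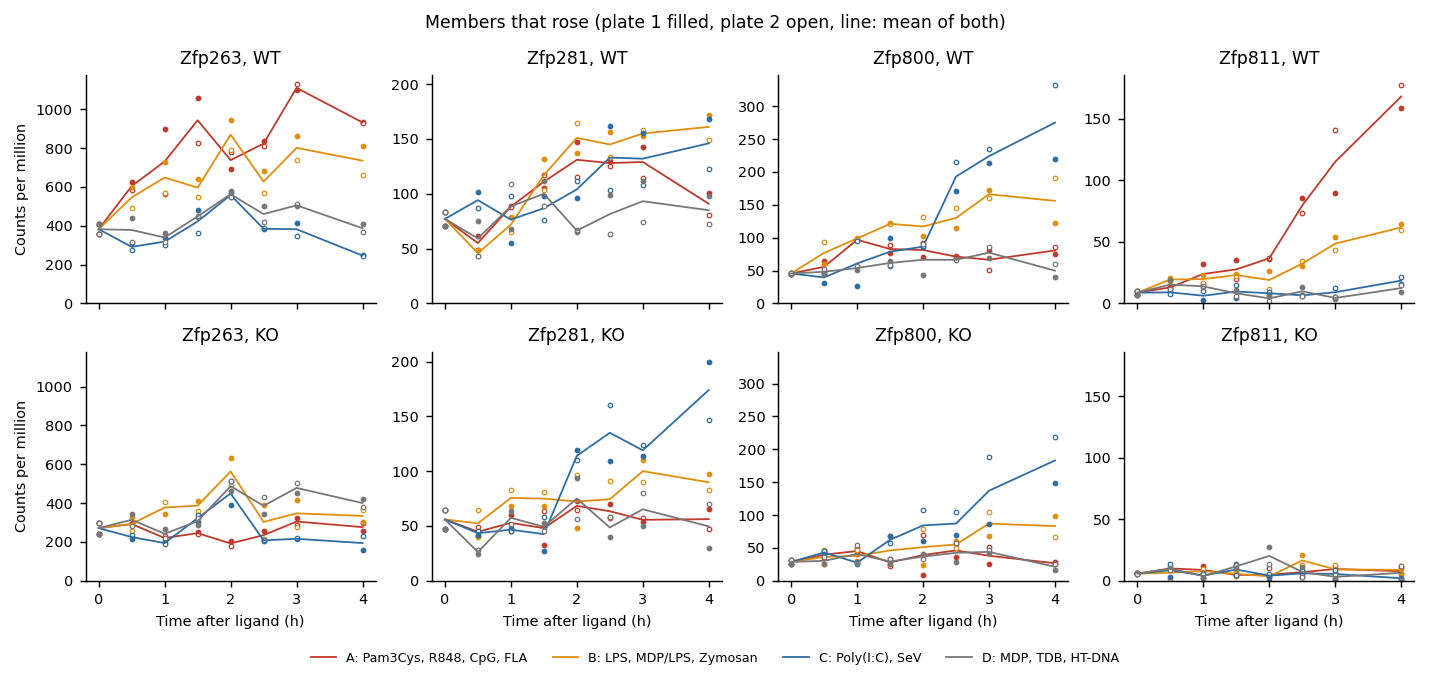
CPM (y axis) against hours after ligand (x axis) of the members called higher most often, in WT (upper row) and KO cells (lower row), with plate 1 as filled and plate 2 as open points and the line at their mean, coloured by ligand set. Zfp263 and Zfp811 climb in WT sets A and B, while Zfp281 and Zfp800 climb in sets B and C of both genotypes.

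Other members rose in fewer comparisons. Zfp131, a zinc finger protein with a BTB domain, went from 61.6 and 45.8 CPM to 107 and 96.9 in WT set B early (1.02, SE 0.24, adjusted p = 0.0069), a call lost without either WT plate. In KO set B early it was 48.3 and 46.5, below its time 0 of 54.1 and 56.4. Zfp319 went from 11.8 and 8.21 to 30.5 and 29.6 in WT set C late (1.80) and reached 29.8 and 27.6 in KO set C late (1.64). Zfp703, a transcriptional repressor, passed in WT cells in the middle of the course: 26.5 and 23.4 at time 0, 83.1 and 51 in WT set B middle (1.62, adjusted p = 0.00032), and 20.8 and 35.5 late (0.55, not called). Zfp516, known as an activator of brown fat genes, was 47.5 and 44.8 at time 0 and 79.4 and 67.7 in WT set B middle (0.87, adjusted p = 0.02). Zfp457 was 43 and 51.4 in WT set B late (0.75, adjusted p = 0.0489). In KO cells Zfp367 and Zfp622, a ribosome biogenesis factor, rose in set B middle (1.89 and 0.79), and Zfp619 and Zfp945 in set C late (1.92 and 1.74).

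Zfp120, a KRAB gene with 9 fingers at chr2:150114406-150136708 (ENSMUSG00000068134.13, minus strand), was lower most often, in 10 of 24 comparisons, and was the only member lower early. WT time 0 was 105 and 83.7 CPM. Set B gave 48.5 and 31 early (-1.14, SE 0.25, adjusted p = 0.00286), 23 and 16.1 in the middle window (-2.06, adjusted p = 1.72e-08) and 20.8 and 30 late (-1.52). Every set B sum lay below both time 0 sums; the early call was lost without either WT plate, the late one without plate 1. By single times it passed from 1 h (-1.84), not at 0.5 h. Set C late was 31.6 and 26.4 (-1.47), set A middle 53.9 and 39.4 (-0.90), and set D late 87.3 and 78.4. In KO cells, with 96.7 and 110 at time 0, set B middle gave 40.8 and 55.3 (-0.93), set C middle 48.5 and 27.4 (-1.45) and set A late 103 and 115.

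Zfp704, at chr3:9427020-9610085 (ENSMUSG00000040209.12, minus strand), fell in sets A, B and C of WT cells. It went from 112 and 89.7 CPM at time 0 in WT cells to 38.8 and 38 in set A late (-1.25, adjusted p = 1.6e-05), 29.7 and 21.3 in set B late (-1.60, adjusted p = 7.32e-08) and 32.4 and 33.7 in set C late (-1.38). No late sum of these sets overlapped time 0, while set D late was 85 and 66.7. In KO cells it stood at 123 and 115 at time 0, 44.7 and 31.5 in set B late (-1.37), 46.1 and 51.1 in set C late (-1.06), and 159 and 129 in set A late (0.28), above both time 0 sums.

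Zfp292, a large transcription factor gene at chr4:34803113-34882960 (ENSMUSG00000039967.14, minus strand), was lower in 2 WT and 4 KO comparisons. WT time 0 was 171 and 123 CPM; set C late gave 53.3 and 68.9 (-1.03, adjusted p = 0.000303), a call lost without WT plate 1, and set B late 98.8 and 79.8, which did not pass (-0.34). KO time 0 was 94.6 and 114; set B late gave 34.7 and 30.2 (-1.42, adjusted p = 2.46e-06) and set C late 31.7 and 26.7 (-1.59, adjusted p = 1.24e-07). All KO sums of these late groups lay far below both time 0 sums. The difference between genotypes in set B late was -1.08 and did not pass (adjusted p = 0.102).

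**Figure D4:**
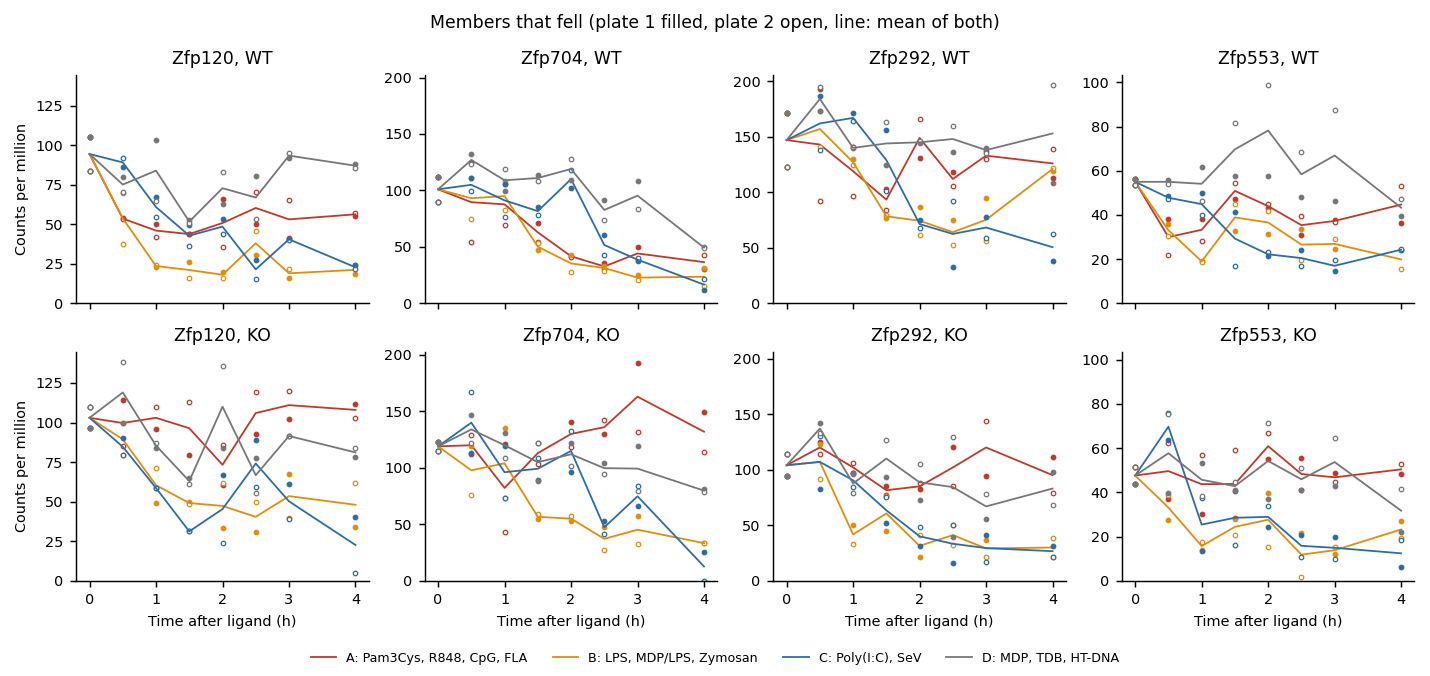
CPM (y axis) against hours after ligand (x axis) of 4 members called lower most often, in WT (upper row) and KO cells (lower row), drawn as plate 1 filled, plate 2 open and the line at their mean. Zfp120 and Zfp704 fall in WT sets B and C and stay near time 0 in KO set A.

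Zfp553 fell in sets B and C of both genotypes, from 56.3 and 53.7 CPM to 20.2 and 20.8 in WT set C late (-1.19, adjusted p = 0.00384) and from 43.9 and 51.3 to 14.4 and 12.4 in KO set C late (-1.58). Zfp426 fell from 40.6 and 29.4 to 12.4 and 9.43 in WT set B middle (-1.48), and Zfp329 from 23.5 and 20.2 to 6.43 and 6.1 (-1.60). Zfp318, which controls the choice of IgD splicing in B cells, went from 99.8 and 69.1 to 39.4 and 43.7 in WT set C late (-0.79), a call lost without either WT plate. Zfp91, the second most abundant member and a ubiquitin ligase linked to NF-kB signalling, went from 301 ± 35.1 CPM (SD, n = 2 plates) to 130 ± 20.3 in KO set C late (-0.98, adjusted p = 0.00124). In WT set C late Zfp91 was at 165 and 208 from 331 and 315, which did not pass (-0.56, adjusted p = 0.11). Zfp106, an RNA-binding protein, and Zfp148 were also lower in KO set C late (-0.78 and -0.74).

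Of 78 lower calls against time 0, 10 rested on 3 or fewer counts in the stimulated sums, from 9 members. Zfp51 had 0 counts in WT set C middle against 63 at time 0, at least 7.78-fold lower by a floor of 3 counts. Zfp180 had 0 in KO set C middle against 75 (at least 9.35-fold lower), Zfp182 had 0 in KO set B late against 30 (at least 5.44-fold) and Zfp954 had 0 in WT set B middle against 27 (at least 4.44-fold). Zfp472 was lower in WT set A middle with 5 counts against 85. Intervals and floors cover counting error only, since whether molecular tags were collapsed is not given in the sources used here.

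Several well-known members did not pass in WT cells. Zfp207, which helps chromosomes attach to the spindle, was at 126 and 134 CPM at time 0 and at 132 and 120 in WT set B late (0.33, adjusted p = 0.279). Zfp445, which protects imprinted genes, was at 72.8 and 76.4 with a log2 change of -0.26 in WT set B late, and Zfp809, which silences retroviral DNA, at 12.4 and 11.4 with -1.29 (adjusted p = 0.201). Zfp598, a sensor of stalled ribosomes, had 0.93 (adjusted p = 0.276) and Zfp217 0.18 there. None of Zfp110, Zfp143, Zfp335, Zfp384, Zfp568, Zfp592, Zfp687 and Zfp706 passed in WT set B middle or late, WT set C late or KO set C late.

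Set D of the same plates was used as another reference, measured at the same times. It was not without a response: Nfkbia stood at 2000 and 2360 CPM in WT set D middle (1.10, adjusted p = 2.08e-10), from 954 and 1080, and at 2630 and 3080 in KO set D middle (2.20, adjusted p = 2.05e-24), from 627 and 626. Against set D of the same window, WT set A had Zfp263 and Zfp719 higher early (1.18% of all genes called in either direction). Zfp811 and Zfp263 were higher and Zfp472 and Zfp704 lower in the middle window (3.08%), and late the same pair was higher and Zfp704 lower (5.36%). WT set B had Zfp263, Zfp131 and Zfp719 higher early (1.19%), 5 higher and 6 lower in the middle window (5.82%), and 5 higher and 4 lower late (13.0%). The late values against set D were 2.82 for Zfp811, 1.62 for Zfp800, 1.19 for Zfp281, 1.06 for Zfp263, -1.34 for Zfp120 and -1.20 for Zfp704. In KO cells set B against set D had no member called early (1.15%, 19 at an unadjusted p under 0.05), 10 lower and 0 higher in the middle window (5.43%), and 3 higher and 7 lower late (8.72%). The late ones included Zfp800 (1.34), Zfp281 (0.91) and Zfp319 (1.49) as higher and Zfp292 (-1.08) and Zfp704 (-1.04) as lower. Zfp719 passed in WT cells against set D and not against time 0: it was 22.9 and 27.6 CPM in set B early, 8.95 and 4.15 in set D early and 12 and 10.7 at time 0.

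The difference of the responses between genotypes was tested as KO change minus WT change, with genotype and plate inseparable. In set A, Zfp263 differed early (-0.96, SE 0.21; 0.515% of all genes called), in the middle window (-1.52; 1.32%) and late (-1.45; 3.55%). The early difference was lost without WT plate 1, WT plate 2 or KO plate 2. Zfp811 differed late (-3.51, SE 0.60, adjusted p = 2.37e-05) and Zfp704 in the other direction (1.53, SE 0.31, adjusted p = 0.000348). Zfp472 differed in the middle window (4.21, SE 1.02), on 5 counts in WT. No member differed in set B early (0.0267%) or middle (0.0711%), with 9 and 16 at an unadjusted p under 0.05.

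In set B late Zfp703 differed (-2.09, SE 0.52, adjusted p = 0.0282; 0.817% of all genes). It was 20.8 and 35.5 CPM in WT set B late and 12.8 and 4.57 in KO, from 29.6 and 32 at KO time 0. With plate as a replicate block 3 members were lower in that difference over all windows, and without WT plate 1, WT plate 2 or KO plate 2 the Zfp703 call was lost. Zfp263 missed the threshold there (-0.76, adjusted p = 0.0504), as did Zfp811 (-1.65, adjusted p = 0.273). In set C middle Zfp51 differed, resting on the 0 counts in WT. Of all 11256 genes, 25 were higher and 1 was lower in that difference. No member differed in set C early or late, where 11 and 18 of all genes were higher and 0 lower, nor in any window of set D.

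Members called in both genotypes were counted as a share of each list. In set B late 4 lower members were shared (Zfp120, Zfp426, Zfp553 and Zfp704), 50.0% of the WT and 30.8% of the KO list, and 3 higher ones (Zfp263, Zfp281 and Zfp800), 60.0% and 75.0%. Over all genes tested the shared part in set B late was 47.2% of the WT and 49.4% of the KO list for lower calls, and 62.0% and 76.4% for higher ones. In set C late 5 lower members were shared (Zfp120, Zfp292, Zfp318, Zfp553 and Zfp704), 55.6% and 35.7%, and 3 higher ones (Zfp281, Zfp319 and Zfp800), 100% and 60.0%, where all genes gave 70.0% and 40.8% lower and 85.8% and 66.8% higher. In set B middle 4 lower members were shared, 50.0% of WT and 33.3% of KO calls (all genes: 41.7% and 29.9%). Only 1 higher member was shared there, Zfp263, 14.3% and 33.3% (all genes: 64.4% and 64.7%). In set C middle 1 lower member was shared, Zfp120, 33.3% and 16.7% (all genes: 56.3% and 18.2%). Of higher members, 0 were called in WT and 2 in KO, with 0 shared (all genes: 88.1% and 46.4%). The shares of members were not tested against those of all genes. Within a genotype these sets share their time 0 wells.

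**Figure D5:**
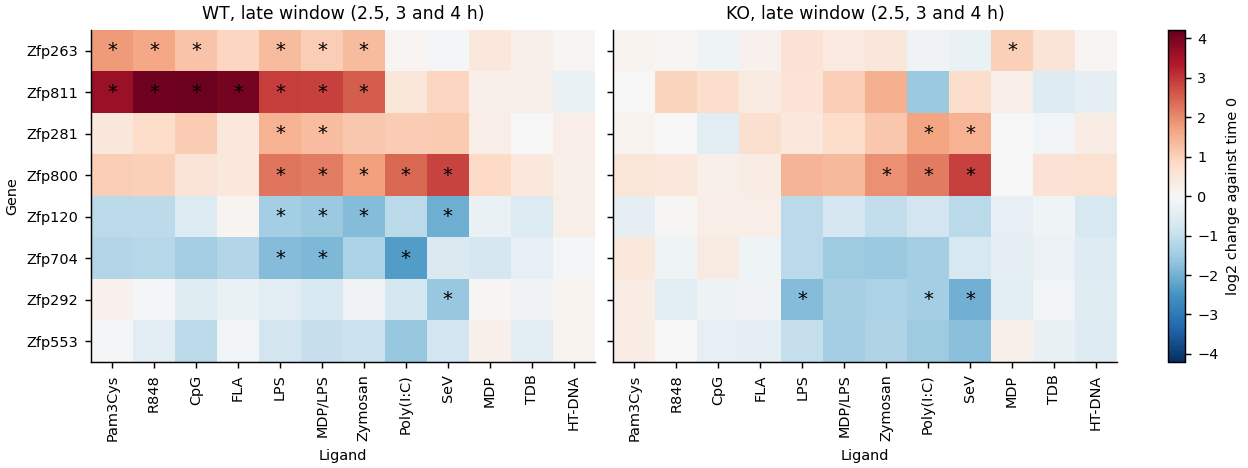
Late log2 change from time 0 of 8 members (rows) for each of the 12 ligands (columns) in WT and KO cells, as colour. Zfp811 is raised by the 7 ligands of sets A and B in WT cells, and Zfp800 by LPS, MDP/LPS, Zymosan, Poly(I:C) and SeV.

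Fitted ligand by ligand, Zfp811 was higher late in 7 of 12 ligands in WT cells and in 0 of 12 in KO cells. The WT values ran from 2.54 with Zymosan (43.3 and 42.7 CPM) to 4.12 with CpG (88.2 and 181 CPM). Zfp263 was higher with 6 WT ligands, led by Pam3Cys with 1260 and 1190 CPM (1.77), followed by R848 with 1080 and 1030 (1.61). FLA, at 769 and 567, missed the threshold for Zfp263 (0.89, adjusted p = 0.0656). Zfp800 was highest with SeV, at 254 and 280 CPM in WT (2.85) and 133 and 212 in KO cells (2.86). Zfp281 passed with LPS (1.46) and MDP/LPS (1.30) in WT and with Poly(I:C) (1.65) and SeV (1.48) in KO cells.

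Among fallen members, Zfp120 was lower late in WT cells with LPS (-1.41), MDP/LPS (-1.56), Zymosan (-1.81) and SeV (-2.04). The 2 ligands of set C were unlike for Zfp704, at 10.9 and 23.8 CPM with Poly(I:C) (-2.33, called) and 57.6 and 50 with SeV (-0.60, not called). They were also unlike for Zfp292, at 65.4 and 86.1 with Poly(I:C) and 39.2 and 40.4 with SeV (-1.58, called). Neither contrast between the 2 ligands was tested itself.

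KRAB members and the rest were compared by medians. In WT set B middle KRAB members stood at -0.39 and the others at -0.24, in WT set A early at -0.32 and -0.07, and in WT set C late at -0.34 and -0.38. KRAB members had a median summed count of 1210 and the others 1390, and the part of counts in this split was not tested. ATTTA pentamers, the core of AU-rich decay elements, were in the annotated 3′ UTR of 79.5% of 171 members and of 67.6% of 8554 other genes, with median UTR lengths of 1306 and 999 bases. The 74 members with 3 or more pentamers had a median of -0.06 in WT set B late and the 35 with none -0.32, against -0.32 and -0.43 in WT set C late and -0.09 for both in WT set A early. In KO set C late the values were -0.41 and -0.32, and in KO set B middle -0.18 and -0.02. The members with 3 or more pentamers had the lower median in 1 of 12 WT comparisons with time 0 and in 9 of 12 KO comparisons, and no test of this order was made.

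Other zinc finger families were counted in WT set C late, where 7.86% of all genes were higher and 4.39% lower. Of 10 Zscan and Zkscan genes 0 passed, with a median of -0.74, and of 27 Zbtb genes 1 was higher and 2 lower, with a median of -0.34. Of 16 Zc3h genes, whose CCCH fingers bind RNA, 2 were higher (Zc3h7a and the antiviral Zc3hav1) and 0 lower, with a median of 0.30. Of 9 Klf genes, 2 were higher (Klf4 and Klf6) and 1 lower (Klf9), with a median of 0.335. Of 15 Zdhhc genes 0 were higher and 1 was lower (Zdhhc14), with a median of -0.09. Medians differed in WT sets A and B late. There the Zscan and Zkscan genes had -0.198 and -0.294, the Zbtb genes 0.098 and -0.183, and the Zc3h genes 0.172 and 0.18.

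Of 20 genes on a list of KRAB repression partners, 3 were higher and 2 lower in WT set B late, where 10.4% and 5.97% of all genes were. Daxx, a histone chaperone, went from 96.7 and 121 CPM to 319 and 393 (2.09, adjusted p = 2.64e-12), Hdac1, a deacetylase, from 85.1 and 83.3 to 128 and 130 (0.99), and Morc3 from 155 and 131 to 170 and 193 (0.72). Dnmt3a, a DNA methyltransferase, went from 754 and 666 to 250 and 233 (-1.18, adjusted p = 2.22e-09) and Mphosph8, a subunit of the HUSH silencing complex, from 202 and 190 to 86.6 and 97.6 (-0.71). In WT set C late the same 5 passed in the same directions, and Cbx3 was also lower. Back in WT set B late, Trim28 and Setdb1, outside the rule for named genes and given for their role, were at 25.8 and 32.6 CPM from 55.5 and 53.7 (-0.53, adjusted p = 0.15) and at 10.5 and 17.4 from 31.4 and 33.5 (-0.84, adjusted p = 0.073).

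Zfp36, the decay factor left out of the members, behaved as an early response gene: 140 and 162 CPM at time 0 in WT cells, 519 and 461 in set A early (1.78, adjusted p = 3.33e-13) and 692 and 642 in set B early (2.24). In KO set A early it was at 143 and 115 from 104 and 128 (0.14, adjusted p = 1).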

How the data were processed

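RNA-seq was made from 384 wells, 96 on each of 4 plates, 1 library per well from the 3′ ends of transcripts, with SCRB-Seq in modified form per the labels' protocols. The authors deposited 1 table of whole-number counts per gene and well, with no normalization, and nothing was done to the counts before use. BWA and mm10 are named in the submitters' processing notes; its version, the annotation, the counter and the handling of molecular tags are each not given in the sources used here. No 2 wells held identical values.

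Wells were summed per plate by ligand set and window (52 sums, 26 groups), by set and single time (116 sums, 58 groups), or by ligand and window (148 sums, 74 groups), with the 12 time 0 wells of a plate as 1 sum. Each table was fitted whole with edgeR 4.0.16 in R 4.3.3 (filterByExpr with a minimum count of 10, TMM, glmQLFit, glmQLFTest; Benjamini-Hochberg threshold 0.05). The filter left 11256, 10713 and 10562 genes, and all 174 members passed it each time. DESeq2 1.42.0 was an alternative. The script was tested on simulated data. Depth per plate was 37323548 and 31280223 counts in WT and 32320373 and 29737092 in KO; 17 wells were under 150000. CPM divide by each sum's total.

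Replicate numbers mark a plate shared by all groups of a genotype, per the labels, so the fit was also made with plate within genotype as a replicate block. Same-numbered sums deviated together only weakly (median correlation 0.027 over 78 pairs of WT groups and 0.0373 over 78 of KO groups). The replicate block kept all 146 member calls that were followed.

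Members, ligand sets, windows and lists were chosen with earlier results of these data known. Genes named are members past the threshold with at least 30 counts over the sums compared and the same direction in both plates (up to 10 per side and comparison), the 6 members with most counts, members with a known role, the 3 genes on each side of the minimum of 500, listed genes past the threshold, and Myd88, Zfp36 and Nfkbia. Zfp954 and the genes with 3 or fewer counts were named after their values were seen. Members were matched to GENCODE's GRCm38 annotation for position, fingers and UTR; 3 matched by an older symbol. KRAB was searched as a sequence pattern in the first 250 residues.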

Additional observations from a re-analysis of the deposited data

Results flagged for a closer look

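Differences between the genotypes' responses that passed their own test (KO change minus WT change, edgeR's quasi-likelihood test with Benjamini-Hochberg adjustment, 2 plates per genotype) were singled out. Genotype and plate cannot be told apart in all of them. In set A, Zfp263 differed by -0.957 early (SE 0.207, adjusted p = 0.00482), by -1.519 in the middle window (SE 0.208, adjusted p = 3.88e-07) and by -1.452 late (SE 0.206, adjusted p = 3.28e-07). Also in set A, Zfp472 differed by 4.21 in the middle window (SE 1.017, adjusted p = 0.0106), where WT had 5 counts. Late, Zfp811 differed by -3.506 (SE 0.6, adjusted p = 2.37e-05) and Zfp704 by 1.534 (SE 0.306, adjusted p = 0.000348). In set B late, Zfp703 differed by -2.087 (SE 0.516, adjusted p = 0.0282). In set C middle, Zfp51 gave a fitted difference of 9.12 (SE 2.037, adjusted p = 0.0163), which rests on 0 counts in WT set C middle and is no bound.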

How the results depend on the processing

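The 146 calls of single members that were followed kept their direction under every alternative run. They kept the call in 146 with the replicate block, 144 with DESeq2-type size factors, 143 without Rn45s, 141 without wells under 150000 counts, 140 of 144 with DESeq2, 139 without the low-count filter, 111 with FLA and Zymosan left out, 109 with early as 0.5 h and middle as 1 to 2 h, and 95 of 145 against the time 0 wells of the same set. Leaving out a plate cost most where it was a WT plate: 81 were lost (65 kept) without WT plate 1 and 79 (67 kept) without WT plate 2, against 26 lost without KO plate 1 and 30 without KO plate 2. Zfp263 kept 234 of 259 alternative values, Zfp800 101 of 104, Zfp811 107 of 117, Zfp704 140 of 156 and Zfp120 104 of 117. Calls within 1 genotype use no plate of the other, so the losses by plate are out of different numbers of calls. The cause of the changes below was not tested. Shares of all genes called under the alternatives, or with a plate left out, are not given. The counts below thus do not compare members with other genes.

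Against the time 0 wells of the same set, members lower were 5 in WT set B middle (8 otherwise), 6 in KO set B middle (12) and 8 in KO set B late (13), members higher were 6 in WT set C late (3) and 3 in KO set C late (5), the KO minus WT difference of set B had 0 lower (1), and the median of WT set C late was -0.19 (-0.37). With early as 0.5 h and middle as 1 to 2 h, 2 were lower in WT set B middle, 1 higher in KO set B middle (3), 5 lower in sets A and B against set D (9) and 1 higher in the set A difference (2). With FLA and Zymosan left out, 1 was higher in KO set B middle, 1 in the set A difference, and 0 were lower in the set B difference and in KO against WT at time 0 (1). With the replicate block WT set A had 6 higher and 5 lower (3 and 3), and the set B difference 3 lower. DESeq2 gave 5 and 5 in WT set A, 1 higher in the set A difference and 3 lower in the set B difference. Without wells under 150000 counts 5 were lower in WT set A, 2 in the set B difference and 0 in KO against WT at time 0. On the TMM scale the members' summed level at 4 h was, as the mean of both plates, 114% of time 0 in WT set B, 93.3% in WT set C, 92.8% in KO set B and 84.9% in KO set C, all higher than on CPM.

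Leaving out each plate in turn (the lone plate of a genotype is then assumed to vary like the other groups), counts ranged as follows, higher and then lower. WT set B middle had 2 to 7 and 1 to 11, WT set B late 4 to 6 and 2 to 12, WT set C late 1 to 6 and 2 to 13. KO set B middle had 1 to 2 and 5 to 9, KO set B late 3 to 5 and 4 to 10, KO set C late 3 to 5 and 9 to 14. WT set A in any window had 2 to 6 and 0 to 5, sets A and B against set D 3 to 8 and 2 to 17, and the set A difference 0 to 5 and 2 to 2. The set B difference had 0 to 2 lower and KO against WT at time 0 had 0 to 1. Medians ran from -0.234 to -0.043 in WT set A early, -0.246 to -0.123 in set B late and -0.38 to -0.263 in set C late. Members had a median of 1331 counts over all wells, which limits what can be detected for single members at single times.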
